A study of Ovis aries with 18 samples.

Results

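The methionine cycle and transsulfuration genes MAT1A, MAT2A, MAT2B, AHCY, AHCYL1, MTR, MTRR, BHMT, CBS and CTH were taken by symbol from the embryo count table, where they were 10 of 20092 genes. All 10 passed the filter on low counts and were tested among 16488 genes. The samples were pools of sheep blastocysts sired by Polypay rams that had been fed either a control diet (Control) or that diet with rumen-protected methionine (Methionine-treated) while prepubertal. The study asked whether methionine fed to a ram alters gene expression in the embryos it sires. The treated rams received a top-dress of 1.5 g, an addition of 0.22% of the diet. Each ram, of either diet, was penned with its own Polypay ewes, which were superovulated.

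Methionine is activated to S-adenosylmethionine, the methyl donor for DNA, histones and many small molecules, and each methyl transfer leaves S-adenosylhomocysteine, which is hydrolysed to homocysteine. Homocysteine is either methylated back to methionine, with folate or betaine as the methyl source, or passed through cystathionine to cysteine, the route called transsulfuration. In most tissues the folate route predominates, while the betaine route and the liver form of methionine adenosyltransferase are best known from liver. Preimplantation embryos depend on the cycle for methylation while the genome is being reprogrammed.

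There were 12 pools of 5 embryos, 6 pools per diet. Each of the 3 control rams (Ram410, Ram423 and Ram444) sired 2 pools, whereas in the treated group Ram424 sired 4 pools and Ram498 and Ram511 sired 1 pool each. Pools of a ram are not independent of the ram, so a p-value over pools measures the spread between pools, and diet rests on 3 rams per group. The RNA of each pool went through whole transcriptome amplification, and because whole blastocysts were pooled, fewer cells of a type and less RNA per cell cannot be told apart.

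Total counts ranged from 1017847 to 2398589 per pool, with a median of 1524370. The paper reports far more sequenced reads per pool, so the counted reads were a small part of them. For 10 of the pools the median Spearman correlation with the other pools was 0.820 to 0.857, but it was 0.58 for Embryo444_2 (control) and 0.60 for Embryo511_1 (Methionine-treated), the only pool of Ram511. The summed level of the 8 trophectoderm markers in the table was 280 CPM (read counts scaled to library size) in Embryo444_2 and 272 CPM in Embryo511_1, against 5419 to 14804 CPM in the other 10 pools. KRT8, a keratin of trophectoderm and the largest part of that sum in the other pools, was at 116 and 42.6 CPM in these pools and at 3893 to 11862 CPM elsewhere. Of the 8 markers 7 were lower in both pools than in all the others, whereas ELF5 (29.0 and 66.4 CPM) lay within their range. The 3 inner cell mass markers in the table summed to 43.2 and 75.3 CPM in these pools and to 182 to 558 CPM in the others, through POU5F1 (14.2 and 39.7 CPM), while NANOG and TDGF1 lay within the range of the other pools. The 4 blood markers in the table summed to 140 and 271 CPM against 55.0 to 101 CPM, through PTPRC (121 and 254 CPM). The blood markers CD74, SPI1 and TYROBP lay within the range of the other pools. The summed sperm markers (5 in the table) were at 445 and 1105 CPM against 53.6 to 121 CPM, mostly through SPATA18 (394 CPM) in Embryo444_2 and TNP1 (1008 CPM) in Embryo511_1. SPATA18 in Embryo511_1 (20.8 CPM) and TNP1 in Embryo444_2 (12.7 CPM) lay within the range of the other pools, as did ODF1 and AKAP4 in both. SMCP was within that range in Embryo444_2 and slightly above it in Embryo511_1 (18.8 CPM, against at most 17.6 CPM). No sperm marker was higher in both pools than in all the others. The part of these differences in the results below was not tested, and results are therefore given with 12 pools and without these 2 pools. Embryo424_1 and Embryo424_2 were closer to each other (Spearman 0.955) than any other pools of one ram (0.585 to 0.895). They differed by more than read sampling, but amplification also adds spread, so this cannot show that their embryos were separate. They were kept as separate pools, as labelled.

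Levels are given as CPM normalised between pools by the trimmed mean of M-values, and differences as log2 fold changes, methionine minus control, with their standard errors (SE). Levels are compared between pools within a gene and not between genes, since CPM is not corrected for transcript length. The genes had between 8 and 1045 raw counts in a pool. The lowest, CTH in Embryo444_1, had an exact Poisson 95% interval of 3.45 to 15.8 counts, and the highest, MAT2A in Embryo424_1, one of 983 to 1110 counts; these intervals cover counting error only, since several reads can come from one amplified molecule. In all 20 combinations of gene and diet the coefficient of variation between pools, 15.4% to 110%, exceeded that of counting, 4.29% to 18.9%.

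None of the 10 genes differed between sire diets at a false discovery rate (FDR) under 0.05 in edgeR's quasi-likelihood test, where 0% of all genes tested were called. At an unadjusted p under 0.05 the count was also 0 of 10, beside 7.92% of all genes tested (3.55% with higher and 4.37% with lower levels in methionine-sired pools). The fitted difference was positive for 5 genes and negative for 5, with a median log2 fold change of 0.00014, beside 0.0051 over all genes. The median size of the difference regardless of sign was 0.15 on the log2 scale, beside 0.29 over all genes. For every gene the ranges of the 2 diets overlapped, whereas 0.352% of all genes tested had ranges that did not. Without the 2 pools the ranges also overlapped for every gene, beside 1.78% of all genes tested that did not.

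**Figure D1:**
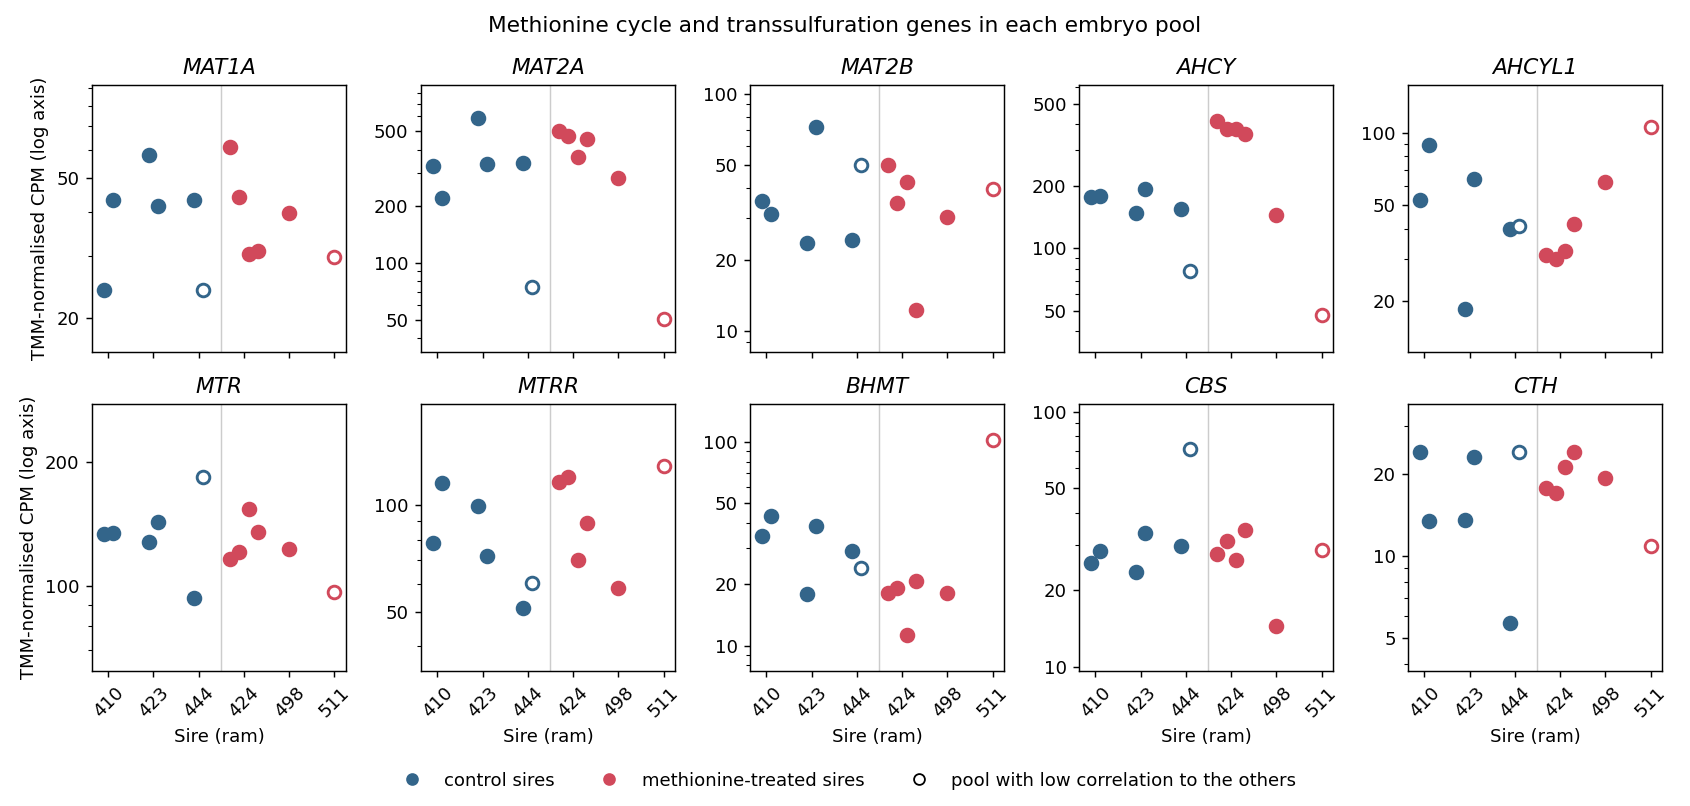
Normalised CPM (log axis) of each of the 10 genes in the 12 embryo pools, with 1 point per pool grouped by sire ram. The 4 AHCY points of Ram424, 356 to 411 CPM, lie above those of the other 8 pools, and the diets overlap in every panel.

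The first step of the cycle is catalysed by methionine adenosyltransferase. MAT2A, the catalytic subunit in most tissues, ranged from 74.3 CPM through a median of 331 to 588 CPM in control pools, and from 50.6 through 409 to 499 CPM in methionine-sired pools. The lowest pool of each diet was Embryo444_2 or Embryo511_1, and the highest pool, Embryo423_1, was a control pool. The log2 fold change was 0.17 (SE 0.50, 95% interval -0.89 to 1.24, FDR 0.947), with means of 314 ± 169 and 354 ± 169 CPM (SD, n = 6). Without both Embryo444_2 and Embryo511_1 it was 0.18 (SE 0.26, FDR 0.822), but it was -0.032 without Embryo444_2 alone and 0.40 without Embryo511_1 alone. Without Ram424 it was -0.90 (SE 0.77, FDR 0.785), so no direction was established for MAT2A.

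MAT2B, the regulatory subunit that binds the MAT2A product, lay between 23.6 and 72.5 CPM (median 33.3) in control pools and between 12.3 and 50.2 CPM (median 37.1) in methionine-sired pools. Its highest pool, Embryo423_2, and its lowest, Embryo424_4, were each far from another pool of the same ram (Embryo423_1 at 23.6 and Embryo424_1 at 50.2 CPM). Between diets it differed by -0.19 on the log2 scale (SE 0.35, FDR 0.910).

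MAT1A, the form known from adult liver, was counted in every pool. It ranged from 24.1 through 42.5 to 57.9 CPM in control pools and from 29.7 through 35.4 to 61.2 CPM in methionine-sired pools. The means were 39.0 ± 13 and 39.4 ± 12.2 CPM (SD, n = 6), the log2 fold change was 0.016 (SE 0.28, 95% interval -0.58 to 0.62) and the FDR was 0.994. MAT1A overlaps DYDC1 in the RefSeq gene table (assembly ARS-UI_Ramb_v3.0), which is not the assembly of the counts, and DYDC1 is also a row of the count table. Reads in an overlap can be left uncounted as ambiguous, so the MAT1A level is uncertain. Of the hepatocyte markers, looked at because MAT1A is a liver form, 2 were found in the table (APOB and FGB), and their summed level was 154 to 258 CPM in control pools and 148 to 239 CPM in methionine-sired pools.

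S-adenosylhomocysteine, which inhibits methyltransferases, is removed by the hydrolase encoded by AHCY. AHCY was at 177 and 179 CPM in the pools of Ram410, 149 and 194 CPM in those of Ram423, and 155 and 77.9 CPM in those of Ram444. In methionine-sired pools it was at 411, 378, 379 and 356 CPM for Ram424, 146 CPM for Ram498 and 47.6 CPM for Ram511. The 4 pools of Ram424 were above all 8 other pools, while the single pools of the other 2 treated rams were below every control pool other than Embryo444_2.

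AHCY had the largest difference between diets among the 10 genes, with means of 155 ± 41.4 and 286 ± 151 CPM (SD, n = 6). Its log2 fold change was 0.88 (SE 0.43, 95% interval -0.02 to 1.79) with an unadjusted p of 0.0548 and an FDR of 0.639 in edgeR. Without Embryo444_2 and Embryo511_1 it was 0.96 (SE 0.25, 95% interval 0.42 to 1.49), with an unadjusted p of 0.00157 and an FDR of 0.240. In that fit 11.9% of all genes had an unadjusted p under 0.05 and 0.00619% an FDR under 0.05. Of the 5 methionine-sired pools in it 4 were those of Ram424 and none was of Ram511. With the pools of a ram also summed AHCY had a log2 fold change of 0.66 (SE 0.38) and an unadjusted p of 0.106 in edgeR.

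The difference in AHCY depended on which sires were included. Without the 4 pools of Ram424 the log2 fold change was -0.67 (SE 0.49, FDR 0.752); the 2 methionine-sired pools left were then Embryo498_1 and Embryo511_1, the latter with the lowest AHCY level of all pools. Without Ram511 it was 1.10 (SE 0.32, FDR 0.340). When the counts of a ram's pools were summed, so that 3 rams were compared with 3, it was 0.33 (SE 0.64, unadjusted p 0.616 in edgeR). AHCY was the only one of the 10 genes with every pool of Ram424 above the 8 other pools, as were 1.82% of all genes tested (2.63% with every pool of Ram424 above or below the others). This pattern was looked for after the values were seen. Leaving out Ram424 changed the sign of 6 of the 10 genes, but the share of all genes that changed sign was not computed. For MAT1A, BHMT, AHCYL1 and CTH the value with 12 pools was small (0.016, -0.016, -0.024 and 0.09). None of the 6 had an unadjusted p under 0.05 in edgeR in that fit, beside 1338 of 15594 genes tested, and the lowest FDR was 0.682.

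**Figure D2:**
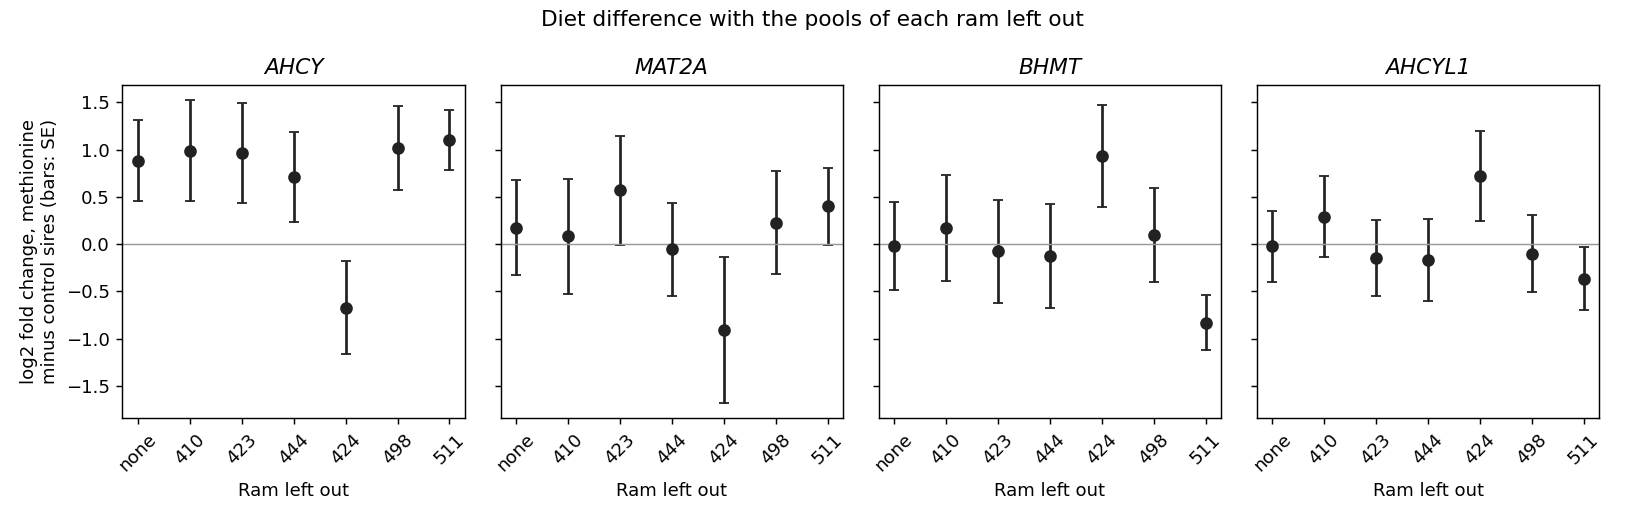
Log2 fold change (methionine minus control) of AHCY, MAT2A, BHMT and AHCYL1 with all 12 pools and after leaving out all pools of each ram in turn; bars are SE. Without Ram424 the AHCY point moves from 0.88 to -0.67 and that of MAT2A from 0.17 to -0.90.

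AHCYL1, an AHCY relative best known as a regulator of the inositol trisphosphate receptor, ranged from 18.6 through 46.9 to 89.2 CPM in control pools and from 30.0 through 37.1 to 105 CPM in methionine-sired pools. Embryo511_1 was the highest pool, and the 4 pools of Ram424 were together at 30.0 to 41.8 CPM. The log2 fold change was -0.024 (SE 0.38, FDR 0.994) and, without Embryo444_2 and Embryo511_1, -0.43 (SE 0.34, FDR 0.653). It was 0.72 (SE 0.48, FDR 0.727) without Ram424.

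Methionine synthase, encoded by MTR, methylates homocysteine with a folate methyl group and a cobalamin cofactor. MTR varied least between pools, from 93.7 through 134 to 185 CPM in control pools and from 97.2 through 122 to 155 CPM in methionine-sired pools. The 2 most distant control pools were both sired by Ram444, and every methionine-sired pool fell between them. The log2 fold change was -0.13 (SE 0.23, 95% interval -0.61 to 0.35, FDR 0.903), the narrowest interval of the 10 genes.

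MTRR, the reductase that reactivates methionine synthase when its cobalamin is oxidised, ranged from 51.1 through 75.1 to 115 CPM in control pools and from 58.4 through 103 to 129 CPM in methionine-sired pools. Its highest pools were Embryo511_1, Embryo424_2 and Embryo424_1, and its lowest were the 2 pools of Ram444 and that of Ram498, so methionine-sired pools were found at both ends. Between diets MTRR had a log2 fold change of 0.29 (SE 0.27, FDR 0.796), and 0.12 without Embryo444_2 and Embryo511_1.

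BHMT methylates homocysteine with betaine. Control pools ranged from 17.9 through 31.9 to 43.2 CPM, and methionine-sired pools from 11.3 through 18.7 to 102 CPM. The 102 CPM was that of Embryo511_1; the pools of Ram424 (11.3 to 20.6 CPM) and of Ram498 (18.1 CPM) were lower than all control pools except Embryo423_1. In the RefSeq gene table BHMT overlaps LOC105611628, a long non-coding RNA that has no row in the count table.

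The diet difference in BHMT depended on whether Embryo511_1 was included. With 12 pools the log2 fold change was -0.016 (SE 0.47, 95% interval -1.01 to 0.97, FDR 0.995), and without Embryo511_1 alone it was -0.83 (SE 0.29, unadjusted p 0.0119, FDR 0.349). Without Embryo444_2 as well it was -0.90 (SE 0.29, 95% interval -1.52 to -0.29), with an unadjusted p of 0.00667 and an FDR of 0.280 in edgeR, and means of 32.7 ± 9.76 and 17.5 ± 3.61 CPM (SD, n = 5). AHCY and BHMT were the 2 of 10 genes with an unadjusted p under 0.05 in that fit, 1 in each direction, beside 11.9% of all genes tested. With the pools of a ram also summed, a fit that held no pool of Ram511, BHMT had a log2 fold change of -0.84 (SE 0.36). Its unadjusted p was 0.0396 in edgeR and its FDR 0.983, beside 765 of 16488 genes tested with an unadjusted p under 0.05. With all rams kept and their pools summed, the BHMT value was 0.54 (SE 0.66, unadjusted p 0.431 in edgeR). Without Ram424, and with Embryo511_1 kept, the BHMT value was 0.93 (SE 0.54, FDR 0.682).

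**Figure D3:**
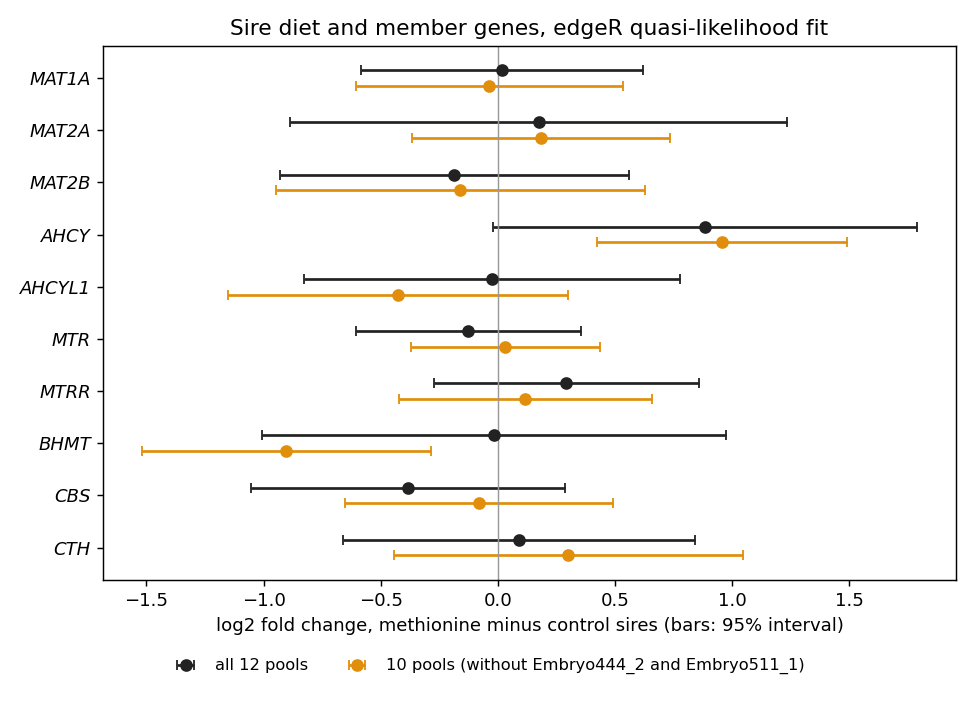
Log2 fold change (methionine minus control) of the 10 genes with 95% intervals, from the fit of 12 pools and from that of 10 pools without Embryo444_2 and Embryo511_1. With 12 pools every interval includes 0, and with 10 pools those of AHCY (0.96) and BHMT (-0.90) do not.

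Transsulfuration begins with cystathionine beta-synthase, encoded by CBS. CBS ranged from 23.6 through 29.1 to 71.5 CPM in control pools and from 14.5 through 28.2 to 34.4 CPM in methionine-sired pools. Apart from Embryo444_2 at 71.5 CPM and Embryo498_1 at 14.5 CPM, the other 10 pools lay between 23.6 and 34.4 CPM. For CBS the log2 fold change was -0.38 (SE 0.32, FDR 0.768), and -0.08 without Embryo444_2 and Embryo511_1.

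CTH, the lyase that splits cystathionine to release cysteine, had the fewest counts. It ranged from 5.68 through 18.3 to 24.1 CPM in control pools and from 10.9 through 18.5 to 24.1 CPM in methionine-sired pools. The lowest pool was Embryo444_1 at 5.68 CPM, and Embryo444_2, of the same ram, was among the highest at 24.1 CPM. For CTH the log2 fold change was 0.09 (SE 0.36, FDR 0.966), with a 95% interval of -0.66 to 0.84. The coefficient of variation between control pools was 43.9%, against 18.9% from counting.

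Differences between sires of one diet were tested in edgeR with a term for each ram within its diet, a test added after the values were seen. Each ram was penned with its own ewes, so sire and dam cannot be told apart in this test. With 12 pools, 2 of the 10 genes were called at an FDR under 0.05, AHCY (FDR 0.0454) and BHMT (FDR 0.0355), beside 3.97% of all genes tested. The next were MAT2A (FDR 0.149), AHCYL1 (FDR 0.168) and MTRR (FDR 0.305). Without Embryo444_2 and Embryo511_1, 0 of 10 were called (1 at an unadjusted p under 0.05: AHCY, p 0.00974, FDR 0.341), beside 0.142% of all genes tested, and BHMT had an FDR of 0.910. Since Ram511 had only the pool that stood apart, its sire effect and that pool cannot be told apart.

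The 2 pools that stood apart were not set apart in the same way for each gene. MAT2A and AHCY were lower in both than in all the other 10 pools, a pattern that 12.9% of all genes tested shared. None of the 10 genes was higher in both than elsewhere, beside 8.15% of all genes. BHMT and AHCYL1 had their highest level in Embryo511_1 and an intermediate level in Embryo444_2, and CBS and MTR their highest in Embryo444_2 and not in Embryo511_1.

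Correlations between the genes had both signs. Over the 45 pairs of genes the median Spearman correlation across the 12 pools was 0.056, and it was 0.10 across the 10 pools. These correlations describe pools that share sires and libraries, and no test was made of them. The lowest was between MAT2A and AHCYL1 (-0.83, and -0.92 without Embryo444_2 and Embryo511_1) and the highest between AHCYL1 and BHMT (0.76, and 0.70). MAT2A and AHCY, the enzymes before and after methyl transfer in the cycle, had a correlation of 0.65 over 12 pools and 0.39 over 10.

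**Figure D4:**
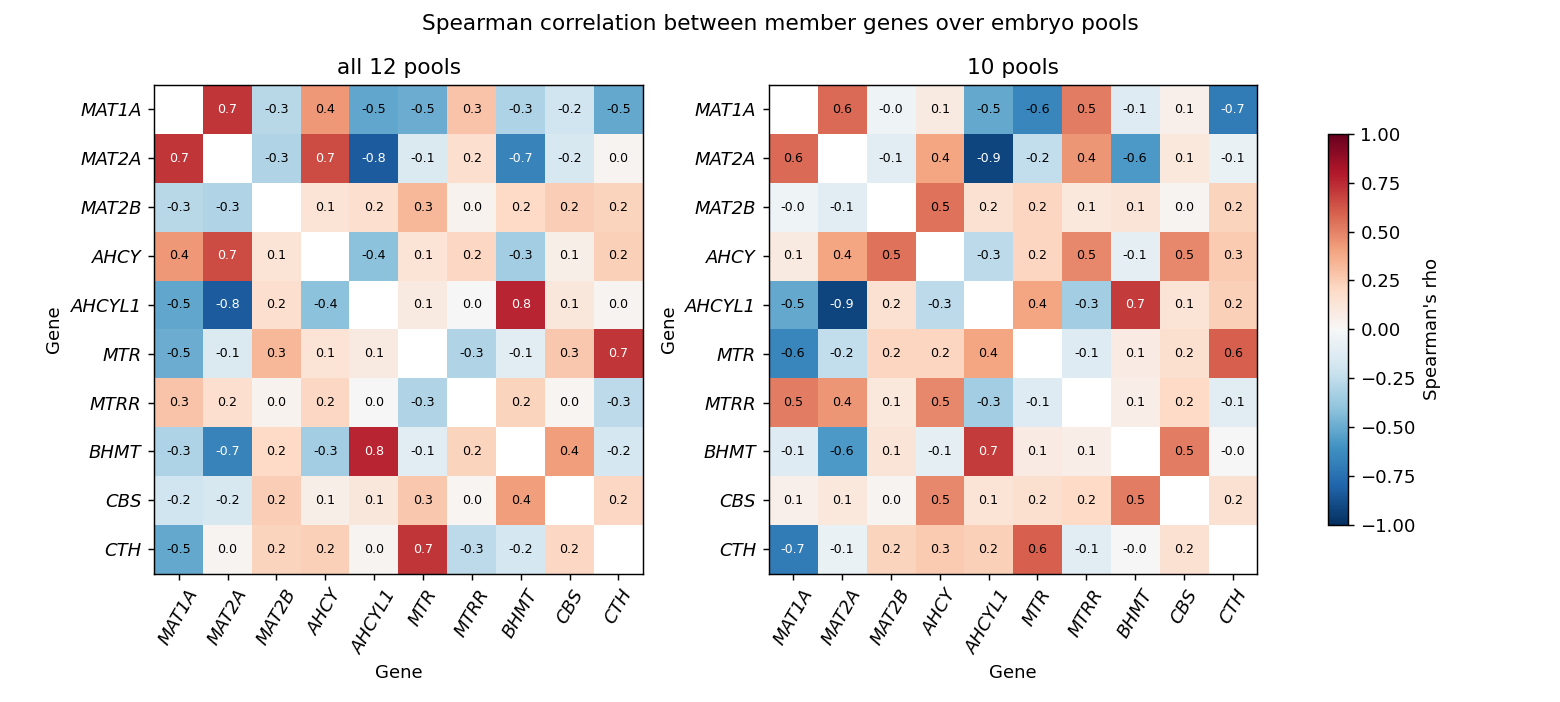
Spearman correlation of normalised log2 CPM between each pair of the 10 genes, over 12 pools and over the 10 pools without Embryo444_2 and Embryo511_1. Positive and negative values are mixed, from -0.83 for MAT2A and AHCYL1 to 0.76 for AHCYL1 and BHMT over 12 pools.

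Among the other 16487 genes tested, those nearest to the 5 genes with the highest mean CPM were listed by Spearman correlation over 12 pools, with the value without Embryo444_2 and Embryo511_1 given after it. MAT2A was nearest to PTBP1 (0.98, 0.98), TMED2 (0.98, 0.98) and LOC101104530 (0.97, 0.96). AHCY was nearest to DRAM1 (0.98, 0.96), S100A14 (0.98, 0.96) and LOC114114062 (0.97, 0.95). Over 12 pools 4.45% of all genes tested had a correlation above 0.8 with MAT2A and 2.75% with AHCY, the 2 genes that were lowest in both pools that stood apart. MTR was nearest to MS4A1 (0.96, 0.94), STYK1 (0.96, 0.94) and LOC101113819 (0.93, 0.88), with 0.218% above 0.8. MTRR was nearest to PSMC1 (0.94, 0.95), VHL (0.92, 0.94) and LOC101107908 (0.89, 0.84), with 0.267% above 0.8. AHCYL1 was nearest to KIF3C (0.95, 0.95), KIF5C (0.94, 0.92) and CADPS (0.94, 0.90), with 0.534% above 0.8. All these genes were picked as the highest of 16487 correlations, so high values were fixed in part by that choice. The 10 pools are among the 12, so the second value is no separate check.

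Genes related to the cycle or to cobalamin, some of which do not act in the cycle, were read from the fit over all genes. Of 38 listed genes 37 were found in the table by symbol and 36 were tested. None was called at an FDR under 0.05, and at an unadjusted p under 0.05 there were 2 with higher and 4 with lower levels in methionine-sired pools, beside 3.55% and 4.37% of all genes. The 4 lower ones belonged to 2 of the lists, S-adenosylmethionine and homocysteine handling (9 tested) and betaine and choline oxidation (5 tested). The 2 higher ones belonged to cobalamin supply (10 tested). No list had 1 direction only. The fitted differences were 5 positive and 4 negative in the first list, 2 and 3 in the second, and 4 and 6 in cobalamin supply. In the remaining lists, close relatives (BHMT2 and AHCYL2) and the breakdown of cysteine and sulfide (10 tested), no gene had an unadjusted p under 0.05 with 12 pools.

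PIPOX, which oxidises pipecolate and sarcosine, ranged from 20.5 through 38.2 to 105 CPM in control pools and from 15.7 through 19.1 to 25.4 CPM in methionine-sired pools, a log2 fold change of -1.31 (SE 0.38, unadjusted p 0.00322, FDR 0.584). SARDH, sarcosine dehydrogenase, ranged from 11.4 to 24.1 and from 4.53 to 13.2 CPM, with a log2 fold change of -0.94 (SE 0.36, FDR 0.585). In both genes the diets overlapped. Among users of S-adenosylmethionine, PEMT, which methylates phosphatidylethanolamine, ranged from 21.4 through 33.3 to 88.0 CPM and from 17.2 through 22.7 to 31.9 CPM, with a log2 fold change of -0.88 (SE 0.35, FDR 0.589). Its 2 highest pools were those of Ram444, at 88.0 and 55.9 CPM. NNMT, which methylates nicotinamide, ranged from 14.9 through 25.5 to 135 CPM and from 9.56 through 21.4 to 33.2 CPM, with a log2 fold change of -1.18 (SE 0.52, FDR 0.612). Embryo410_1 (135 CPM) and Embryo423_1 (77.9 CPM) were far above the other 4 control pools, which were at 14.9 to 29.7 CPM.

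In cobalamin supply, MMAB, which makes adenosylcobalamin, ranged from 11.3 through 15.2 to 22.0 CPM in control pools and from 14.9 through 35.4 to 43.0 CPM in methionine-sired pools. Only the lowest methionine-sired pool, Embryo511_1, was within the control range. The log2 fold change was 1.03 (SE 0.31, unadjusted p 0.00401, FDR 0.584). MMADHC, which routes cobalamin to its 2 enzymes, ranged from 9.91 to 31.2 and from 26.8 to 52.1 CPM, with a log2 fold change of 0.81 (SE 0.31, FDR 0.585). MMUT, the mutase that uses adenosylcobalamin, had a log2 fold change of 0.16 (SE 0.27, FDR 0.899).

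**Figure D5:**
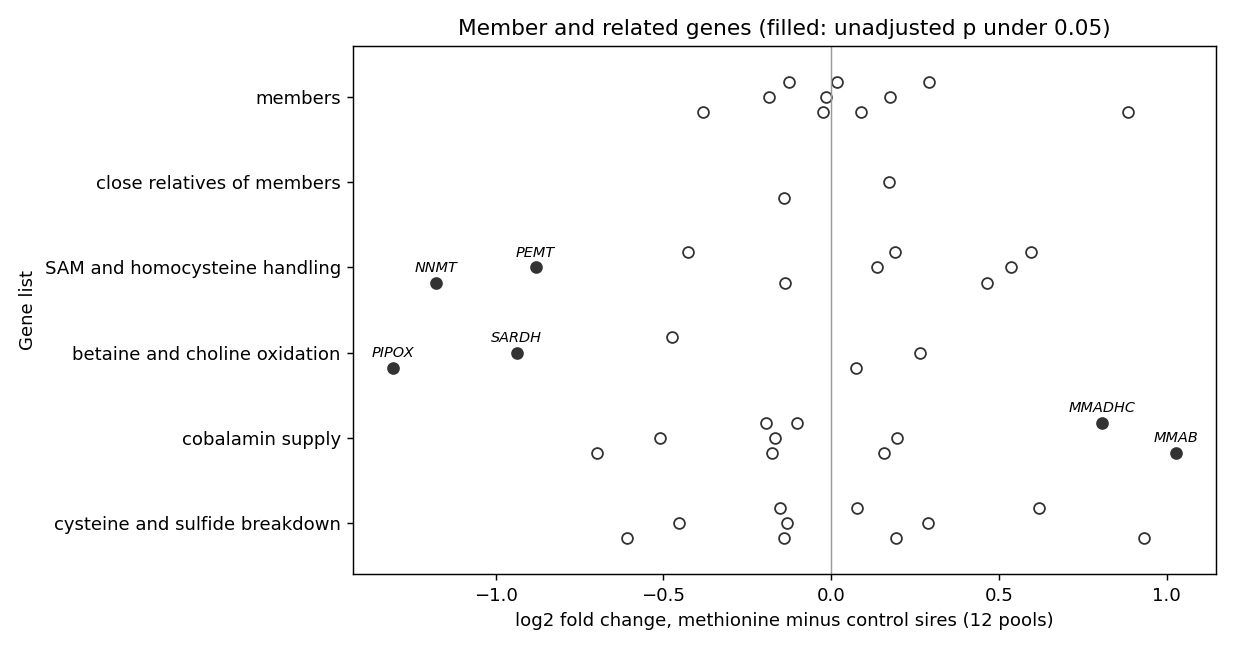
Log2 fold change (methionine minus control) of the 10 genes (top row) and of the 36 tested related genes, 1 point per gene grouped by list, from the fit of 12 pools. Filled points have an unadjusted p under 0.05. PIPOX (-1.31) is the lowest and MMAB (1.03) the highest of the 6 filled points.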

How the data were processed

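Total RNA of pooled blastocysts was amplified and sequenced, and the authors deposited raw read counts per gene and pool. According to the study's methods reads were trimmed with Trimmomatic and aligned to Oar_rambouillet_v1.0 with STAR, whose gene count mode takes uniquely mapped reads. Whether strand was used is not given in the sources used here, so the counts of overlapping and antisense genes are uncertain. All 12 embryo columns were matched to samples. A gene was kept if it reached 15 counts in over 3 pools. edgeR 4.0.16 (R 4.3.3) was used with trimmed mean of M-values normalisation and a quasi-likelihood F test of sire diet, with Benjamini-Hochberg adjustment over all genes tested. The common biological coefficient of variation was 0.45. Alternatives were the edgeR likelihood-ratio test, DESeq2 1.42.0, limma 3.58.1 with the ram as a random effect, other filters and scaling, summed pools of a ram, and leaving out pools or rams. The test was checked on simulated counts drawn independently for each pool, without ram effects or outlying pools, so the check does not cover these features. All 10 member genes are named with values, and for the 5 members of highest mean CPM the 3 genes with the nearest pattern. Related genes are given with values where the unadjusted p was under 0.05 with 12 or with 10 pools. MMUT, which did not meet that rule, was added as the enzyme that uses adenosylcobalamin. Members, lists and the alternatives were chosen with earlier results of these data known. Sperm methylation was not analysed here, because its positions are on another assembly than the gene table used.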

Additional observations from a re-analysis of the deposited data

Results flagged for a closer look

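In methionine-sired pools BHMT was at 102 CPM in Embryo511_1, the only pool of Ram511, and at most 20.6 CPM in the other 5, a gap of 0.897 of the group's range against a Dixon limit of 0.625 for 6 pools. In control pools CBS was at 71.5 CPM in Embryo444_2 and at most 33.4 CPM in the other 5, a gap of 0.796 of the range. These are the 2 pools with the low correlations and low trophectoderm markers, and the part of either in these levels was not tested. The check was made on 32 groups of pools (16 genes, both diets), where chance alone flags about 1 in 20.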

How the results depend on the processing

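None of the 10 genes had an FDR under 0.05 for diet in any of the 28 alternatives, where the lowest FDR was 0.240, and MTRR and CBS kept their sign in all 28. At an unadjusted p under 0.05 the count was 1 of 10, AHCY, in the edgeR likelihood-ratio test (p 0.0418) and in DESeq2 (Wald test, p 0.0341). These tests had 1454 and 1430 of 16488 genes under that limit. In the edgeR quasi-likelihood fit without Embryo498_1 the count was also 1, AHCY (p 0.0357), beside 1428 of 16278 genes. Ram498 and Ram511 had 1 pool each, so leaving out either ram repeated the fit without its pool. The 28 alternatives, and the 18 fits below, count these repeats. Leaving out 1 pool or 1 ram at a time (18 fits) moved the log2 fold change from -0.16 to 0.24 for MAT1A, -0.90 to 0.57 for MAT2A, -0.32 to 0.073 for MAT2B, -0.67 to 1.10 for AHCY, -0.36 to 0.72 for AHCYL1, -0.83 to 0.93 for BHMT and -0.18 to 0.21 for CTH, with both signs for each. With the pools of a ram summed, the sign was the opposite for MAT1A (-0.017), MAT2A (-0.21), AHCYL1 (0.41) and BHMT (0.54), and in limma with a random ram for MAT2A (-0.41) and AHCYL1 (0.089). Without Embryo444_2 and Embryo511_1 it was so for MAT1A (-0.037) and MTR (0.031), and with the ram's pools also summed for MAT1A (-0.016) and MTR (0.079). With Embryo424_1 and Embryo424_2 summed it was so for MAT1A (-0.077), AHCYL1 (0.088) and BHMT (0.10), and for BHMT also in DESeq2 (0.020) and with RLE scaling (0.0071). Over all genes the calls were 0 with the quasi-likelihood fit (1306 with p below 0.05 unadjusted), 5 in the likelihood-ratio test, 16 in DESeq2 and 1 without the 2 pools. The sire test without them called 0 of the 10 genes instead of 2, with 2 fewer pools. The fit without the 2 pools that also summed a ram's pools, that with Embryo424_1 and Embryo424_2 summed, and the sire test were chosen after seeing the data. No paired analysis was possible because each ram had 1 diet and the pool numbers name samples only. The planned analysis of sperm methylation at these genes was not run. CTH had the fewest counts, down to 8 in a pool.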

Other observations

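Without Embryo444_2 and Embryo511_1, 10 of the 36 related genes had an unadjusted p under 0.05, 4 with higher and 6 with lower levels in methionine-sired pools, and none had an FDR under 0.05. Of all 16161 genes tested in these pools 11.9% had an unadjusted p under 0.05, 927 with higher and 998 with lower levels. Besides the 6 genes already named, they included 3 genes of cysteine and sulfide breakdown. CDO1, which oxidises cysteine towards taurine, ranged from 81.4 to 138 CPM in control pools and from 120 to 282 CPM in methionine-sired pools, with a log2 fold change of 0.96 (FDR 0.240). MPST, a mercaptopyruvate sulfurtransferase, had a log2 fold change of -1.24 (FDR 0.240), and ETHE1, a mitochondrial persulfide dioxygenase, one of 0.58 (FDR 0.361). The fourth was ABCD4, a lysosomal cobalamin transporter, at -0.84 (FDR 0.288). Of the 5 methionine-sired pools in this fit 4 were those of Ram424, and none was of Ram511. The pool of Ram498 lay within the control range for CDO1 (120 CPM), MPST (22.3 CPM), ETHE1 (98.8 CPM) and ABCD4 (140 CPM). For ABCD4 the pools of Ram424 were at 53.2 to 77.7 CPM, against 93.7 to 204 CPM in control pools. MMAB ranged from 14.3 to 22.0 CPM in control pools and from 22.6 to 43.0 CPM in methionine-sired pools; its diets did not overlap, as for 1.78% of all genes tested in these 10 pools.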
